A study of Mus musculus with 6 samples.

Results

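The GABA neuron identity genes described here are 7 genes that GABA-releasing neurons use to make and store their transmitter or that help such neurons to form. Gad1 and Gad2 encode the enzymes that make GABA, Slc32a1 encodes the transporter that loads it into synaptic vesicles, and Dlx1, Dlx2, Dlx5 and Dlx6 are homeobox transcription factors. The members were all probes of the array, other than its controls, whose transcript maps to one of these genes. There were 8 such probes of 39429, 2 of them for Slc32a1 and 1 for each other gene, and all 7 genes were among the 22863 genes tested. The array's probe for every member was well above background on all 6 arrays, so no member was lost to the filter on dim probes.

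RNA from mouse hypothalamus was hybridised to single-colour (Cy3) Agilent arrays, with 2 arrays for each of 3 genotypes. All mice were C57BL/6J males aged 16 weeks and carried loxP-flanked alleles of Trsp, the gene of the tRNA that inserts selenocysteine into selenoproteins. TrspFF had the floxed alleles alone, Trsp-RIPKO also carried RIP-Cre, and Trsp-Ins1KO also carried Ins1-Cre. The series addresses hypothalamic oxidative stress and resistance to leptin and insulin. RIP-Cre is driven by an insulin promoter and is known to act in pancreatic beta cells and in some hypothalamic neurons, whereas Ins1-Cre is driven from Ins1 and is known for far less activity in brain. The labels do not say what share of hypothalamic cells recombined, nor that the arrays of a genotype came from separate animals, so the spread behind each p-value is that of the arrays and may be technical. Array signal is given as a level, which is its log2 processed signal less that array's 75th percentile, so 0 is the signal of a fairly bright probe and 1 unit is a factor of 2. Levels serve to compare one gene between arrays and not one gene with another.

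Before any result, 3 facts about the arrays limit the comparisons. Both TrspFF arrays lay on 1 slide and all 4 knockout arrays on another slide with another scan, so in every comparison with TrspFF the slide and the genotype cannot be told apart. The comparison of Trsp-RIPKO with Trsp-Ins1KO lies within 1 slide and 1 scan, and it is also the test of whether the 2 knockouts differ from TrspFF by different amounts. The columns of the deposited value table labelled Trsp-RIPKO hold the values of the scanner files labelled Trsp-Ins1KO, and the reverse, while the TrspFF columns match their own files. Genotypes here follow the scanner files. With the table's own labels, each value given for one knockout belongs to the other. No probe for Trsp itself is on the array, so the deletion could not be used to check the labels. The 75th percentile of processed signal was 1391 and 1720 in TrspFF, 1858 and 2137 in Trsp-RIPKO, and 1736 and 1930 in Trsp-Ins1KO. Between 68.9% and 72.0% of probes were well above background. Of 16 hypothalamic marker genes, 15 were tested, and 14 or 15 of them were well above background on each array.

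GABA is the main inhibitory transmitter of the brain. Neurons make it from glutamate with glutamic acid decarboxylase, whose larger form (Gad1) is found throughout the cell and supplies much of the basal GABA, and whose smaller form (Gad2) is enriched at nerve terminals. The vesicular transporter Slc32a1 is shared by GABA and glycine neurons. The Dlx genes lie in pairs, Dlx1 beside Dlx2 and Dlx5 beside Dlx6, and act in the developing forebrain to turn on GABA neuron genes, Gad1 and Gad2 among them. In the adult hypothalamus many GABA neurons carry Gad1, Gad2 and Slc32a1, and the AgRP neurons that drive feeding are also GABA neurons.

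The start regions of Gad1, Gad2, Slc32a1 and Dlx2 are shown, from RefSeq's GRCm38.p6 table, because these genes make GABA, load it or, for Dlx2, act upstream of its synthesis in development. Each window runs from 250 bases before to 50 bases after the annotated start, 5′ to 3′ on the gene's strand, with every match to CANNTG (the E-box, a site bound by basic helix-loop-helix factors) in capitals. The window of Dlx1 was searched as well.
Gad1 at chr2:70561879-70562178, plus strand: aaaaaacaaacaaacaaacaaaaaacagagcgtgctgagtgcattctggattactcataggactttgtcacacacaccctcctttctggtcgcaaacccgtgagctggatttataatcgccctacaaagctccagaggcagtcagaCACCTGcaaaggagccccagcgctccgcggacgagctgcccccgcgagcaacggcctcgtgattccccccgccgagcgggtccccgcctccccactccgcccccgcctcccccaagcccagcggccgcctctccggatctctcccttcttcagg
Gad2 at chr2:22622077-22622376, plus strand: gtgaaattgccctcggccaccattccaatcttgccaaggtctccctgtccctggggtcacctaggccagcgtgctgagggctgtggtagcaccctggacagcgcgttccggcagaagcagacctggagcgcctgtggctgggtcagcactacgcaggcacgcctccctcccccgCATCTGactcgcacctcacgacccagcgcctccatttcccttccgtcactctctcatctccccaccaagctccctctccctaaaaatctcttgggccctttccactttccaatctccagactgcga
Slc32a1 at chr2:158610508-158610807, plus strand: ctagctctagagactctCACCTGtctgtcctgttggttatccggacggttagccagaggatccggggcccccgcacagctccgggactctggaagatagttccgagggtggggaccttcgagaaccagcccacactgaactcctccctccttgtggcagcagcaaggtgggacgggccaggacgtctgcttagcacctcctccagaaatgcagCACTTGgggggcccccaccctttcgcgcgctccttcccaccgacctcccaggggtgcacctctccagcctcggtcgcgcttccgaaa
Dlx2 at chr2:71546705-71547004, minus strand: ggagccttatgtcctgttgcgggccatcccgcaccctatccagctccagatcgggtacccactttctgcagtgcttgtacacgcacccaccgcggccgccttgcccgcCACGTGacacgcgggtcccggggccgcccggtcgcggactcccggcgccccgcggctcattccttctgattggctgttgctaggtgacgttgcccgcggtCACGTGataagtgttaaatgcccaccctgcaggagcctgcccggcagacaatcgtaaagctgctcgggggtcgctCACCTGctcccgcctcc

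CANNTG reads the same on both strands. It matched 1 time in the Gad1 window, 1 time in Gad2, 2 times in Slc32a1, 3 times in Dlx2 and 0 times in Dlx1, and 72.3% of the 32851 windows of this length hold it at least 1 time. TAATT, a core that homeodomain proteins such as the Dlx factors bind, was searched on both strands and was in 0 of the 5 windows, against 27% of all windows. Its shorter form ATTA, which lies within the reverse strand of every TAATT, matched 2 times in Gad1 and 0 times in the other 4, against 58% of all windows. A count of 0 says only that these letters are not within this stretch. All 5 windows were rich in CpG, with 21 in Gad1, 14 in Gad2, 17 in Slc32a1, 27 in Dlx1 and 29 in Dlx2, against a median of 7 over all windows.

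For 6 of the 7 genes, all but Gad1, both Trsp-RIPKO arrays lay below all 4 other arrays, which was so for 14.8% of all genes tested. Both Trsp-RIPKO arrays lay below both TrspFF arrays for these 6 members (30.2% of all genes) and below both Trsp-Ins1KO arrays for the same 6 (35.8% of all genes). For 0 of 7 members did both Trsp-Ins1KO arrays lie below both TrspFF arrays (26.4% of all genes) or above them (31.7%). No member passed the test in any comparison, as given below with the intervals. The count of 6 depends on the scaling of the arrays: with arrays scaled by their medians it was 4 (Slc32a1, Dlx2, Dlx5 and Dlx6; 9.16% of all genes), with normexp background correction 5 (all of the 6 but Dlx1; 11% of all genes), and with quantile normalization 6 (11.8% of all genes).

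**Figure D1:**
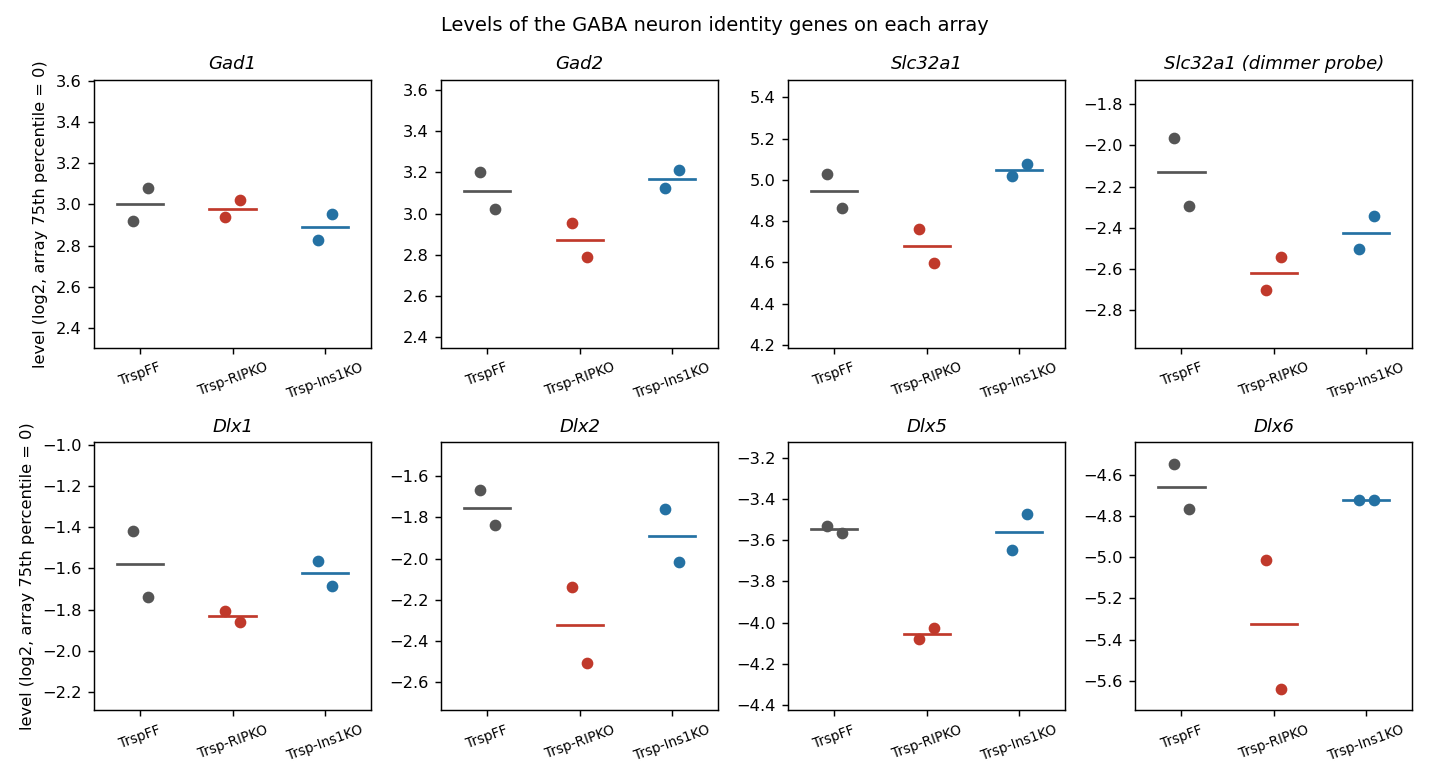
Level of each member on each array (log2 processed signal minus the array's 75th percentile; dots are arrays, bars are means of 2 arrays, and every panel spans the same length of scale). For every gene but Gad1 the 2 Trsp-RIPKO dots are the lowest of the 6, whereas the Trsp-Ins1KO and TrspFF dots overlap for all 7 genes on the main probe.

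Among the enzymes, Gad1 (probe A_52_P144310) had the steadiest levels. They were 2.92 and 3.08 in TrspFF, 2.94 and 3.02 in Trsp-RIPKO, and 2.83 and 2.95 in Trsp-Ins1KO, a range of 0.25 over the 6 arrays. The 3 genotypes overlapped. The difference of Trsp-RIPKO from TrspFF was -0.02 (SE 0.10, limma adjusted p = 0.914), with a 95% interval from -0.29 to 0.25. That interval bounds what the 2 arrays a group could show.

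Gad2 (probe A_51_P495462), the terminal enzyme, had levels of 3.20 and 3.02 in TrspFF, 2.95 and 2.79 in Trsp-RIPKO, and 3.12 and 3.21 in Trsp-Ins1KO. The Trsp-RIPKO arrays were the lowest pair, and the other 4 arrays overlapped. Trsp-RIPKO differed from TrspFF by -0.24 (SE 0.11, limma adjusted p = 0.264; 95% interval -0.53 to 0.05) and from Trsp-Ins1KO by -0.30 (SE 0.11, limma adjusted p = 0.269; 95% interval -0.58 to -0.01). Without TrspFF replicate 1 or Trsp-RIPKO replicate 2 the difference from TrspFF was -0.15 or -0.16. Of the 2 decarboxylase genes, Gad2 had its lowest pair in Trsp-RIPKO and Gad1 did not. The gap from that Gad2 pair to the nearest TrspFF array was smaller than the gap between the 2 TrspFF arrays. With median scaling the Trsp-RIPKO pair of Gad2 was not the lowest. Whether the 2 genes differed in this was not tested.

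Slc32a1, the vesicular transporter, was read by 2 probes. The bright one (A_52_P138926), which stands for the gene in the tests, had levels of 5.03 and 4.87 in TrspFF, 4.76 and 4.60 in Trsp-RIPKO, and 5.02 and 5.08 in Trsp-Ins1KO. The Trsp-RIPKO arrays were again the lowest pair, by a gap to the nearest TrspFF array that was smaller than the gap between the 2 TrspFF arrays. Before scaling, the processed signal of this probe was 45462 and 50144 in TrspFF and 50371 and 51680 in Trsp-RIPKO. Its order against TrspFF therefore rests on the scaling of the arrays. The same was so for Gad2 and Dlx1, whose unscaled signal was also higher on both Trsp-RIPKO arrays than on both TrspFF arrays. Trsp-RIPKO differed from TrspFF by -0.27 (SE 0.11, limma adjusted p = 0.218; 95% interval -0.55 to 0.01) and from Trsp-Ins1KO by -0.37 (SE 0.11, limma adjusted p = 0.263; 95% interval -0.65 to -0.09), the latter a 1.29-fold lower signal.

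The dimmer Slc32a1 probe (A_55_P1985286) had levels of -1.96 and -2.29 in TrspFF, -2.70 and -2.54 in Trsp-RIPKO, and -2.50 and -2.34 in Trsp-Ins1KO. It also had its lowest pair in Trsp-RIPKO, with a difference of -0.49 from TrspFF (SE 0.15, limma adjusted p = 0.152 when every probe was tested on its own). The 2 probes disagreed on Trsp-Ins1KO against TrspFF: the dimmer one differed by -0.30 (SE 0.15, limma adjusted p = 0.280) and the bright one by 0.10 (SE 0.11, limma adjusted p = 0.586).

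Of the Dlx genes, Dlx1 (probe A_52_P464831) had levels of -1.42 and -1.74 in TrspFF, -1.81 and -1.86 in Trsp-RIPKO, and -1.56 and -1.68 in Trsp-Ins1KO. Its Trsp-RIPKO pair was the lowest, by a gap to the nearest TrspFF array that was smaller than the gap between the 2 TrspFF arrays. Trsp-RIPKO differed from TrspFF by -0.25 (SE 0.13, limma adjusted p = 0.313; 95% interval -0.60 to 0.09). Without TrspFF replicate 2 that difference was -0.41, and without TrspFF replicate 1 it was -0.10.

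Dlx2 (probe A_51_P480202), the neighbour of Dlx1, had levels of -1.67 and -1.84 in TrspFF, -2.14 and -2.50 in Trsp-RIPKO, and -1.76 and -2.02 in Trsp-Ins1KO. Both Trsp-RIPKO arrays were lower than any other array. Trsp-RIPKO differed from TrspFF by -0.57 (SE 0.17, limma adjusted p = 0.151; 95% interval -1.01 to -0.12), a 1.48-fold lower signal. Against Trsp-Ins1KO the difference was -0.43 (SE 0.17, limma adjusted p = 0.272; 95% interval -0.88 to 0.01), and without Trsp-RIPKO replicate 2 it was -0.25.

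Dlx5 (probe A_51_P261051) had the closest replicates of the Dlx genes in TrspFF and gave the smallest adjusted p of any member. Its levels were -3.53 and -3.56 in TrspFF, -4.08 and -4.03 in Trsp-RIPKO, and -3.65 and -3.47 in Trsp-Ins1KO. The Trsp-RIPKO pair stood apart from the other 4 arrays, which overlapped. Trsp-RIPKO differed from TrspFF by -0.51 (SE 0.10, limma adjusted p = 0.0815; 95% interval -0.76 to -0.26) and from Trsp-Ins1KO by -0.49 (SE 0.10, limma adjusted p = 0.263; 95% interval -0.75 to -0.24). Over 17 other settings of the processing the first of these adjusted p-values ran from 0.0683 to 0.343 and the difference from -0.53 to -0.26.

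Dlx6 (probe A_52_P556908), the neighbour of Dlx5 and the dimmest of the probes, had levels of -4.55 and -4.77 in TrspFF, -5.01 and -5.64 in Trsp-RIPKO, and -4.72 and -4.72 in Trsp-Ins1KO. The Trsp-RIPKO arrays were the lowest pair but lay 0.63 apart, the widest gap between replicates of any member. Trsp-RIPKO differed from TrspFF by -0.67 (SE 0.23, limma adjusted p = 0.175; 95% interval -1.25 to -0.08) and from Trsp-Ins1KO by -0.60 (SE 0.23, limma adjusted p = 0.268; 95% interval -1.19 to -0.02). Without Trsp-RIPKO replicate 2 the differences from TrspFF and from Trsp-Ins1KO were -0.36 and -0.29, and without Trsp-RIPKO replicate 1 the second was -0.92. With normexp background correction the difference from TrspFF was -0.28.

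Taken over the 7 genes in the comparison of Trsp-RIPKO with TrspFF, limma called 0 at an adjusted p under 0.05, against 1.66% of all genes. At an unadjusted p under 0.05, 3 were lower (Dlx2, Dlx5 and Dlx6) and 0 higher, against 14.2% of all genes lower and 23.9% in either direction. That count of 3 was 1 without TrspFF replicate 1 or without Trsp-RIPKO replicate 2, 2 without either Trsp-Ins1KO array, and 5 with trend and robust moderation. All 7 differences were below 0, as were 51.9% of those of all genes, and Gad1's was above 0 with median scaling and without TrspFF replicate 2 or Trsp-RIPKO replicate 1. The median difference of the members was -0.27, beside -0.01 over all genes, whose lower and upper quartiles were -0.25 and 0.18. It was -0.16 with median scaling, which by construction shifts every gene by the same amount, here 0.11. Relative to all genes the median is therefore -0.26 under both scalings, and this is no check on it. Without TrspFF replicate 2 the median difference of the members was -0.41.

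In the comparison of Trsp-Ins1KO with TrspFF, limma called 0 of 7 members, against 1.82% of all genes, and 0 at an unadjusted p under 0.05, against 26% of all genes. The members lay on both sides of 0, with 5 lower (46.9% of all genes) and 2 higher, but 2 lower and 5 higher with median scaling. The median difference was -0.04 beside 0.02 over all genes, and it was 0.04 with median scaling and 0.04 without TrspFF replicate 1. Their adjusted p-values ran from 0.529 (Gad1) to 0.941 (Dlx5). For Gad1 the difference was -0.11 (95% interval -0.38 to 0.16), for Gad2 0.06 (-0.23 to 0.34) and for Slc32a1 0.10 (-0.18 to 0.38). The Dlx differences were -0.04 for Dlx1 (-0.39 to 0.30), -0.13 for Dlx2 (-0.58 to 0.31), -0.01 for Dlx5 (-0.26 to 0.24) and -0.06 for Dlx6 (-0.65 to 0.52). The p-values that missed the threshold do not show that the genes were equal in the 2 genotypes. The 2 TrspFF arrays serve as controls in both of these comparisons.

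In the comparison within 1 slide, Trsp-RIPKO against Trsp-Ins1KO, limma again called 0 of 7, against 0.0175% of all genes (4 genes, all lower in Trsp-RIPKO). At an unadjusted p under 0.05, 4 members were lower (Gad2, Slc32a1, Dlx5 and Dlx6) and 0 higher, against 10.8% of all genes lower and 18.4% in either direction. That count of 4 was 1 without Trsp-RIPKO replicate 2 or without either Trsp-Ins1KO array, and 2 with quantile normalization or with no filter. Of the 7 differences 6 were below 0 (57.9% of all genes), Gad1 being the other at 0.09 (95% interval -0.18 to 0.36). The median difference was -0.37, beside -0.05 over all genes, and was -0.22 with quantile normalization. In this bulk tissue, fewer cells that carry a gene and less of its RNA per cell cannot be told apart.

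**Figure D2:**
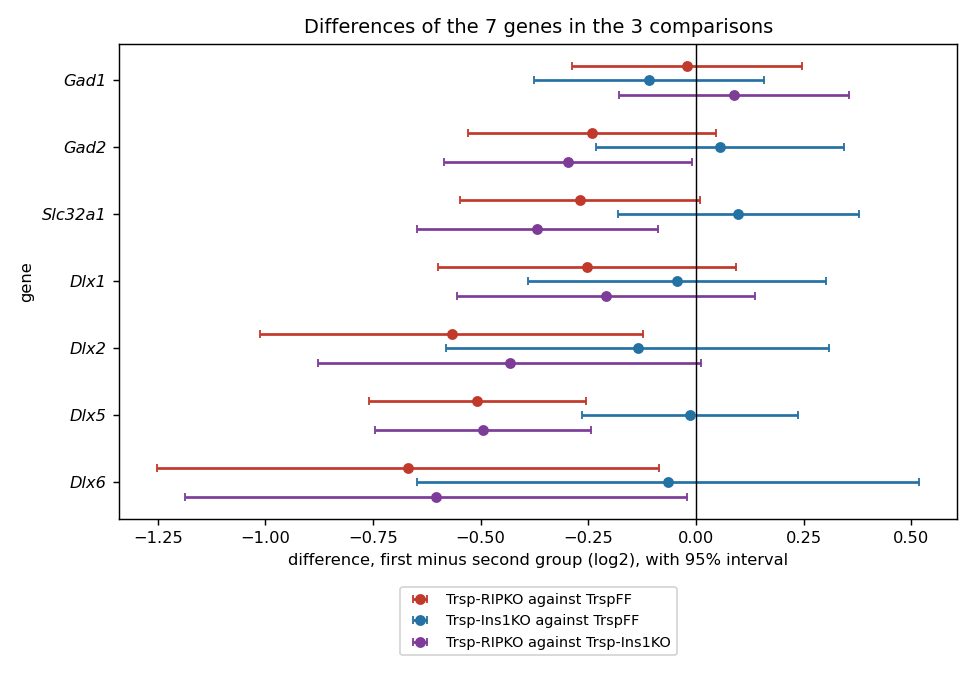
Difference of each member in the 3 comparisons (log2, first-named minus second-named genotype; points are limma estimates from 2 arrays a group, bars are 95% intervals not adjusted for the number of genes). The intervals for Dlx2, Dlx5 and Dlx6 lie below 0 in Trsp-RIPKO against TrspFF, and all 7 intervals span 0 in Trsp-Ins1KO against TrspFF.

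**Figure D3:**
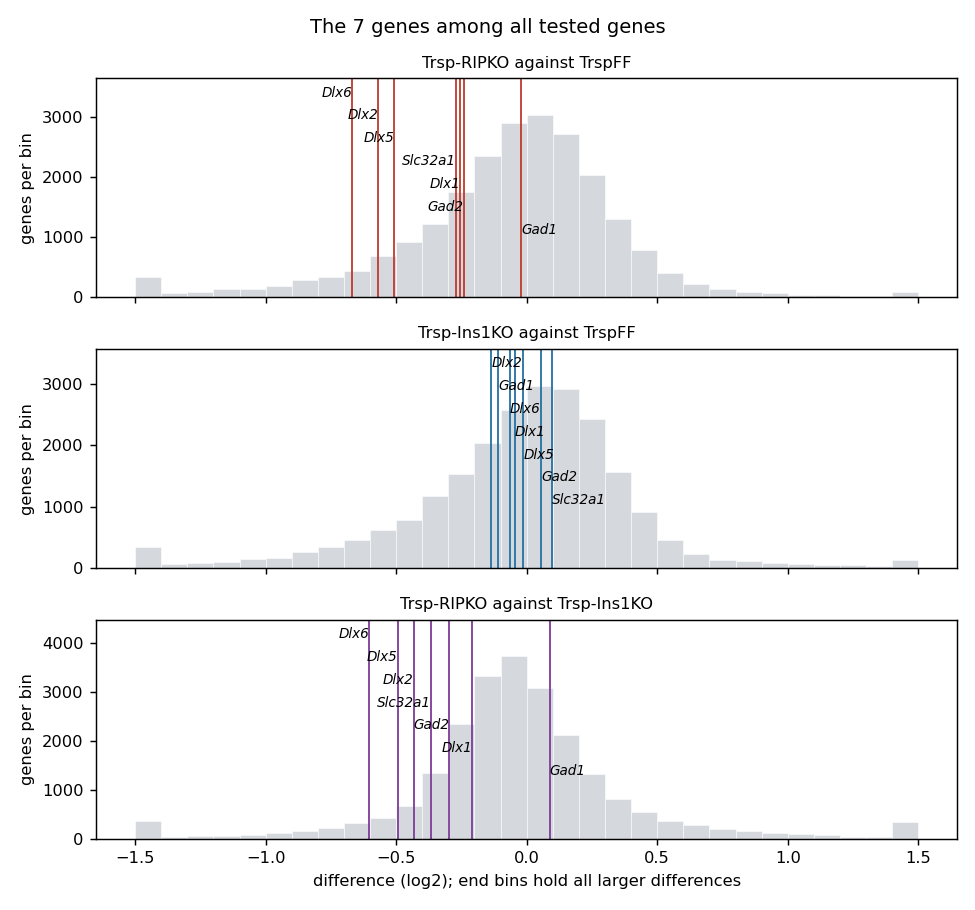
Differences of all 22863 tested genes in bins of 0.1 log2 (grey bars, number of genes; the end bins hold every larger difference) with the 7 members as lines. The members lie from -0.67 to -0.02 in Trsp-RIPKO against TrspFF, from -0.13 to 0.10 in Trsp-Ins1KO against TrspFF, and from -0.60 to 0.09 between the knockouts.

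Other transcripts of the Dlx clusters were read on the same arrays. Dlx3, a further homeobox factor of the family, had levels of 0.80 and 0.88 in TrspFF, 0.56 and 0.40 in Trsp-RIPKO, and 0.41 and 0.47 in Trsp-Ins1KO. Both knockouts lay below TrspFF, by -0.36 (SE 0.10, limma adjusted p = 0.131) in Trsp-RIPKO and -0.40 (SE 0.10, limma adjusted p = 0.102) in Trsp-Ins1KO, and overlapped each other.

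Dlx6os1, a long noncoding RNA transcribed opposite Dlx6, had levels of -3.19 and -3.26 in TrspFF, -3.47 and -3.54 in Trsp-RIPKO, and -3.41 and -4.18 in Trsp-Ins1KO. Both knockouts were below TrspFF, with the lowest value on a Trsp-Ins1KO array. The differences were -0.28 in Trsp-RIPKO (SE 0.26, limma adjusted p = 0.533) and -0.57 in Trsp-Ins1KO (SE 0.26, limma adjusted p = 0.242). Dlx6os2, which was not on the list and was added after its values were seen, had -2.62 and -2.71 in TrspFF, -2.97 and -3.29 in Trsp-RIPKO, and -2.89 and -2.99 in Trsp-Ins1KO. It differed from TrspFF by -0.47 in Trsp-RIPKO (SE 0.13, limma adjusted p = 0.141, unadjusted p = 0.0186) and by -0.28 in Trsp-Ins1KO (SE 0.13, limma adjusted p = 0.266), and 1 Trsp-RIPKO array overlapped the Trsp-Ins1KO pair. Dlx4 differed by 0.01 in Trsp-RIPKO and by -0.42 in Trsp-Ins1KO (limma adjusted p = 0.989 and 0.490), and Dlx1as had no array with its probe well above background. Of the 3 tested genes of this list limma called 0 in each comparison, and at an unadjusted p under 0.05 Dlx3 was lower in both knockouts than in TrspFF. Such a p, in either direction, was found for 23.9% of all genes in Trsp-RIPKO against TrspFF and 26% in Trsp-Ins1KO against TrspFF. Between the knockouts that share was 18.4%. Differences were below 0 for 51.9%, 46.9% and 57.9% of all genes in the same order. These shares also belong beside the counts of the lists below.

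Of 9 genes for GABA reuptake, breakdown and precursor supply, limma called 0 in each of the 3 comparisons. The median difference was -0.21 in Trsp-RIPKO against TrspFF, -0.02 in Trsp-Ins1KO against TrspFF and -0.21 in Trsp-RIPKO against Trsp-Ins1KO. Abat, the transaminase that degrades GABA, had levels of 4.85 and 4.79 in TrspFF, 4.55 and 4.52 in Trsp-RIPKO, and 4.88 and 4.93 in Trsp-Ins1KO. Its Trsp-RIPKO pair lay below the other 4 arrays, as for 6 of the members, with a difference of -0.28 from TrspFF (SE 0.08, limma adjusted p = 0.137) and of -0.37 from Trsp-Ins1KO (SE 0.08, limma adjusted p = 0.263).

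Slc6a11, a GABA transporter found mostly on astrocytes, had another order, with 1.72 and 1.58 in TrspFF, 1.62 and 1.69 in Trsp-RIPKO, and 2.10 and 2.01 in Trsp-Ins1KO, highest in Trsp-Ins1KO (0.41 above TrspFF, SE 0.10, limma adjusted p = 0.0999). At an unadjusted p under 0.05 the list held 2 genes in Trsp-RIPKO against TrspFF (Abat, lower, among them), 1 higher in Trsp-Ins1KO against TrspFF, and 3 lower in Trsp-RIPKO against Trsp-Ins1KO (Abat, Slc6a11 and Aldh5a1, the enzyme after Abat in GABA breakdown).

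Of 11 genes of the inhibitory postsynapse and of chloride transport, limma called 0 in each comparison, and the median differences were near those of all genes (-0.00, 0.05 and -0.10 in the same order). Against TrspFF, 5 of the 11 were higher and 6 lower in Trsp-RIPKO, and 6 higher and 5 lower in Trsp-Ins1KO. Slc12a2, a chloride importer, differed from TrspFF by -0.24 in Trsp-RIPKO and by -0.37 in Trsp-Ins1KO (limma adjusted p = 0.241 and 0.123). Insyn1 and Nlgn2 lay the other way, with both arrays of each knockout above both TrspFF arrays. Insyn1 differed from TrspFF by 0.29 in Trsp-RIPKO and 0.40 in Trsp-Ins1KO, and Nlgn2 by 0.19 and 0.28. Gabbr2, a GABA-B receptor subunit, had 0.12 and -0.18 in TrspFF, -0.44 and -1.13 in Trsp-RIPKO, and -0.51 and -0.53 in Trsp-Ins1KO, both knockouts below TrspFF (-0.75 and -0.48; limma adjusted p = 0.174 and 0.290). At an unadjusted p under 0.05, 1 gene was lower in Trsp-RIPKO against TrspFF, 3 were higher and 1 lower in Trsp-Ins1KO against TrspFF, and 1 was lower in Trsp-RIPKO against Trsp-Ins1KO.

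Of 22 other transcription factors of GABA lineages 21 were tested, and limma called 0 in each comparison. The median difference was -0.14 in Trsp-RIPKO and -0.19 in Trsp-Ins1KO against TrspFF, and 0.01 between the knockouts. Lhx8, a factor of basal forebrain cholinergic and GABA neurons, had the widest difference of the list: -1.76 and -2.19 in TrspFF, -4.26 and -6.51 in Trsp-RIPKO, and -2.86 and -3.78 in Trsp-Ins1KO. The 3 genotypes did not overlap, with Trsp-RIPKO lowest (-3.41 from TrspFF, SE 0.79, limma adjusted p = 0.105). The 2 Trsp-RIPKO arrays lay farther apart than those of either other genotype, so the size leans on replicate 2. Its -6.51 was as dim as some probes not well above background, such as Sim1 at -6.47 on Trsp-Ins1KO replicate 1. Lhx8 itself was flagged well above background on all 6 arrays. Isl1, a factor of striatal and arcuate neurons, had its lowest pair in Trsp-RIPKO, as 6 of the members did. Its levels were -2.34 and -2.39 in TrspFF, -2.70 and -3.00 in Trsp-RIPKO, and -2.25 and -2.17 in Trsp-Ins1KO (-0.48 from TrspFF, SE 0.12, limma adjusted p = 0.124). Etv1 lay the other way, 0.48 higher in Trsp-RIPKO than in TrspFF (SE 0.11, limma adjusted p = 0.108). At an unadjusted p under 0.05, 2 of the 21 were higher and 2 lower in Trsp-RIPKO against TrspFF, 1 higher and 2 lower in Trsp-Ins1KO against TrspFF, and 1 higher and 5 lower between the knockouts. Of all genes, 23.9%, 26% and 18.4% had such a p in either direction in the same order.

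Of 18 genes listed as markers of kinds of GABA neuron, limma called 0 in each comparison. The median difference was 0.22 in Trsp-RIPKO and 0.10 in Trsp-Ins1KO against TrspFF, and 0.03 between the knockouts. In Trsp-RIPKO against TrspFF 11 of the 18 were higher and 7 lower, where all 7 members were lower. Sst, the peptide of somatostatin neurons, had 2.91 and 3.20 in TrspFF, 3.43 and 3.54 in Trsp-RIPKO, and 3.37 and 3.30 in Trsp-Ins1KO, so both knockouts lay above TrspFF. Agrp, the peptide of the feeding neurons of the arcuate nucleus, had -1.29 and -1.66 in TrspFF, -1.06 and -0.80 in Trsp-RIPKO, and -0.29 and -0.85 in Trsp-Ins1KO (0.91 higher in Trsp-Ins1KO than in TrspFF, SE 0.24, limma adjusted p = 0.116). Nts, a peptide of lateral hypothalamic neurons, had its lowest pair in Trsp-RIPKO, at 0.03 and -0.20 against 0.63 and 0.18 in TrspFF and 0.64 and 0.60 in Trsp-Ins1KO (-0.49 from TrspFF, SE 0.18, limma adjusted p = 0.195). Cort and Htr3a lay the other way, 1.87 and 1.02 higher in Trsp-RIPKO than in Trsp-Ins1KO (limma adjusted p = 0.263 for each). At an unadjusted p under 0.05, 3 of the 18 were higher and 1 lower in Trsp-RIPKO against TrspFF, 2 higher in Trsp-Ins1KO against TrspFF, and 3 higher and 2 lower between the knockouts. The shares of all genes with such a p, in either direction, were 23.9%, 26% and 18.4% in the same order.

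Marker lists of other regions and cell types differed between the same arrays, and their part in the members' values was not tested. Striatal medium spiny neurons are GABA neurons. Of their 17 markers, 15 were lower in Trsp-RIPKO (51.9% of all genes) and 14 in Trsp-Ins1KO (46.9%) than in TrspFF. The median differences were -0.44 and -0.53. Limma called Gpr6 lower in both (-0.78 and -0.58; adjusted p = 0.0294 and 0.0469) and Adora2a lower in Trsp-Ins1KO (-2.41; adjusted p = 0.0375; -1.76 and 0.0645 in Trsp-RIPKO). These calls were lost with the replicate block, with only the 2 groups compared in the fit, and on leaving out any 1 array, except that Adora2a was still called without TrspFF replicate 1. Of 17 alternatives limma called Gpr6 under 6 in Trsp-RIPKO and 5 in Trsp-Ins1KO, and Adora2a under 9 in Trsp-Ins1KO. The median of -0.44 was -0.27 without Trsp-RIPKO replicate 2. Their summed signal, in units of the array's 75th percentile, was 51.1 to 53.7 in TrspFF, 40.3 to 45.7 in Trsp-RIPKO and 46.6 to 49.5 in Trsp-Ins1KO, and all 17 were well above background on every array.

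Hypothalamic markers were lower in Trsp-RIPKO than in Trsp-Ins1KO for 15 of 15 tested genes, against 57.9% of all genes. The median difference was -0.64 and limma called 0. Of these markers 8 were lower at an unadjusted p under 0.05, against 10.8% of all genes. The summed signal of the hypothalamic markers was 81.9 to 86.4 in TrspFF, 74.6 to 101 in Trsp-RIPKO and 137 to 146 in Trsp-Ins1KO. In this and the other sums the brightest probes weigh most. Here these were Oxt, Hcrt, Pmch and Avp, at 5.84, 5.16, 4.78 and 4.25 on Trsp-Ins1KO replicate 1. Cortical and hippocampal excitatory neuron markers went the other way, with 11 of 11 higher in Trsp-RIPKO than in Trsp-Ins1KO (median 1.94, 0 called, 4 at an unadjusted p under 0.05) and sums of 9.13 to 13.4 in TrspFF, 17.4 to 19.3 in Trsp-RIPKO and 7.77 to 11.9 in Trsp-Ins1KO. That median was 0.88 without Trsp-Ins1KO replicate 2 and 3.08 without Trsp-Ins1KO replicate 1.

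Choroid plexus markers summed to 89.3 to 142 in TrspFF, 92.1 to 106 in Trsp-RIPKO and 18.2 to 76.4 in Trsp-Ins1KO, the lowest value being Trsp-Ins1KO replicate 2. Without that array the median member difference of Trsp-RIPKO from Trsp-Ins1KO was -0.34. Glutamate neuron identity genes had median differences of 0.12 in Trsp-RIPKO and 0.48 in Trsp-Ins1KO against TrspFF and -0.29 between the knockouts. In Trsp-RIPKO 8 of 8 tested genes were lower than in Trsp-Ins1KO. Sim1, Nr5a1 and Fezf1 are on both this list and the hypothalamic list, so the 2 results are not separate. The hypothalamic list also shares Agrp with the markers of kinds of GABA neuron and Nkx2-1 with the GABA lineage factors. Genes of all neurons had median differences of -0.01, 0.04 and -0.09 over 14 genes, beside -0.01, 0.02 and -0.05 over all genes. Of these 14, 6 were higher and 8 lower in Trsp-RIPKO than in TrspFF. Syn1 differed by 0.42 and Elavl4 by -0.62 (limma adjusted p = 0.0792 and 0.0926). Astrocyte (-0.14, 0.05 and -0.21), oligodendrocyte (-0.03, -0.33 and 0.25), microglia (-0.14, 0.18 and -0.17) and thalamus (0.03, -0.01 and -0.17) lists had 0 genes called in any comparison.

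**Figure D4:**
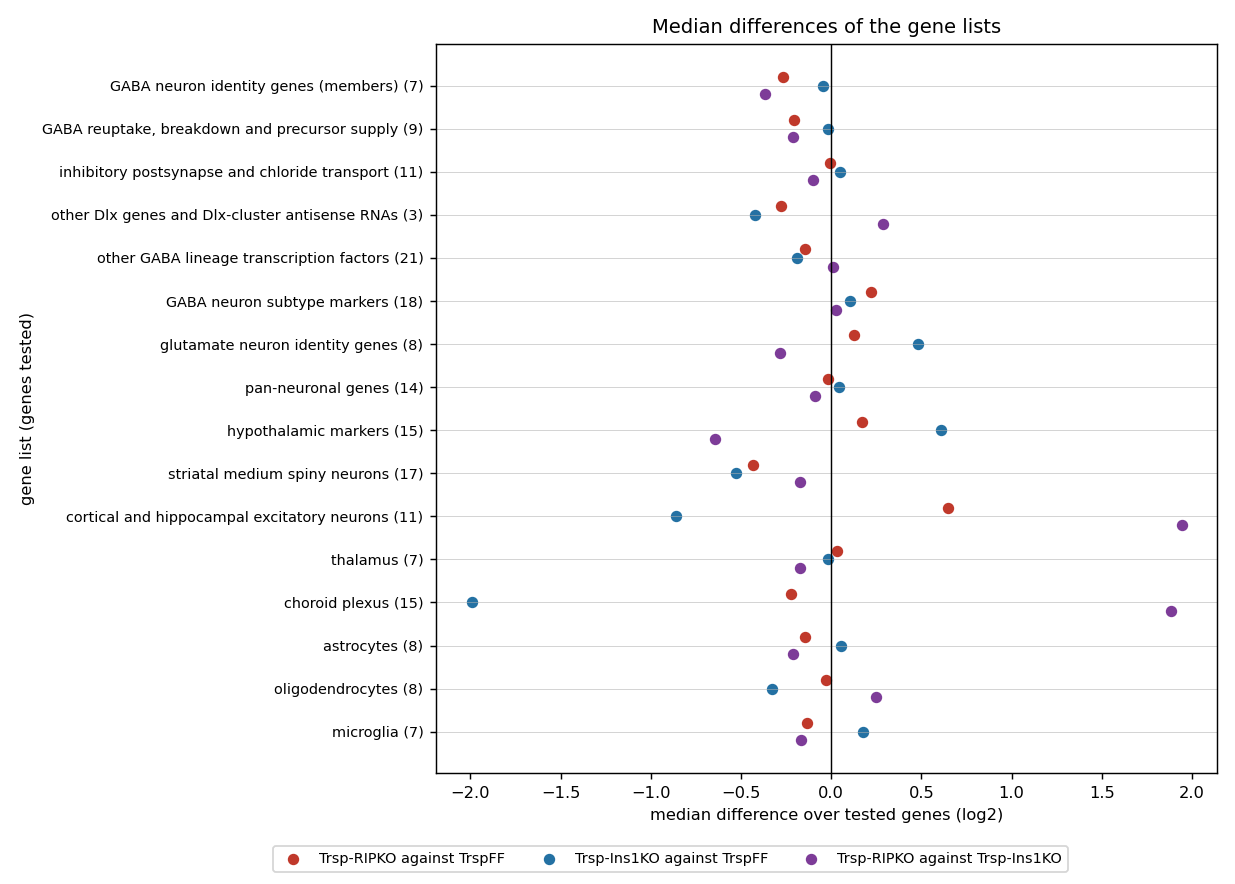
Median difference (log2) over the tested genes of each list in the 3 comparisons; the number of tested genes follows each name. The members lie left of 0 in the 2 comparisons that involve Trsp-RIPKO and near 0 in Trsp-Ins1KO against TrspFF, and the choroid plexus and cortical lists span the widest range.

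The genes whose levels ran most like the members' over the 6 arrays were found by Pearson's r against the mean of the centred members, among 5841 genes well above background on all arrays with an SD of at least 0.2. For Gad1, Gad2 and Slc32a1 that mean was 0.08 and 0.02 in TrspFF, -0.08 and -0.16 in Trsp-RIPKO, and 0.02 and 0.11 in Trsp-Ins1KO. The closest genes were S100a8 (r = 0.987), Cnga3 (r = 0.977), Amotl1 (r = 0.976), Zbtb8b (r = 0.9745) and S100a9 (r = 0.974). S100a8, a calcium-binding protein of neutrophils, ran from -3.41 in TrspFF to -5.07 in Trsp-RIPKO, a far wider span than any of the 3 members.

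For the 4 Dlx genes the mean was 0.28 and 0.10 in TrspFF, -0.19 and -0.44 in Trsp-RIPKO, and 0.15 and 0.10 in Trsp-Ins1KO. The closest genes were Rnf149 (r = 0.987), Nsd3 (r = 0.983), Rbm27 (r = 0.982), Rlim (r = 0.981) and Dnaaf6b (r = 0.981). Rnf149 had 0.62 and 0.47 in TrspFF, 0.19 and 0.03 in Trsp-RIPKO, and 0.45 and 0.40 in Trsp-Ins1KO. With 6 arrays that share slides and genotypes these correlations are a description, chosen as the highest of many.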

How the data were processed

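Total RNA from 6 hypothalamus samples was labelled with Cy3 per the labels' protocols, and intensity was deposited by the authors as scanner output of Agilent Feature Extraction 10.7.3.1, per the file headers, with a processed signal that is already background-corrected. The authors' deposited value table holds log2 values, which were used as an alternative only; each of its columns matched 1 scanner file.

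Flagged spots were dropped, spots of a probe averaged and the log2 processed signal set against the array's 75th percentile. A probe was kept if some genotype had it well above background on each of its arrays (28065 of 39429) and the brightest probe stood for a gene. Symbols came from RefSeq's table and matched 26055 probes (66.1%); others kept the file's name. limma 3.58.1 in R 4.3.3 (lmFit and eBayes) was fitted to all 6 arrays and 22863 genes, with Benjamini-Hochberg adjustment at 0.05. The residual spread had 4.87 degrees of freedom with its prior, and the median SE of a difference was 0.127. An exact permutation test of 2 arrays against 2 cannot go below p = 0.333 and was not used. The script was tested on simulated data.

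The labels and files give slide and scan as the only batches. Replicate numbers did not pair the samples: deviations of same-numbered arrays correlated at -0.03, 0.09 and -0.02 over the 3 pairs of groups. The 17 alternatives and 1 more chosen after seeing the data (the value table under its own labels) are in the closing section. The members and the gene lists were chosen with earlier results of these data known. Named genes are all members, up to 3 genes by smallest p from a list with fewer than 3 calls, the other listed Dlx genes, and the 5 genes most like each of the 2 member profiles. Promoter sequences come from RefSeq (GRCm38.p6); a window was given for 5 of 7 members. The values of 1 listed gene are not reported here.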

Additional observations from a re-analysis of the deposited data

How the results depend on the processing

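With 2 arrays a group, precision rests on the number of arrays. Member genes called stayed at 0 under all 17 alternatives and under the value table's own labels in each comparison. Genes called over the whole array were 379, 416 and 4 (Trsp-RIPKO against TrspFF, Trsp-Ins1KO against TrspFF, Trsp-RIPKO against Trsp-Ins1KO, the order used throughout). They became 0, 0 and 0 with the replicate block, 0, 0 and 319 with only the 2 groups compared in the fit, 0, 25 and 1 with no filter, and 784, 1240 and 1 with trend and robust moderation. The first was 224 with median scaling, and the last was 1 with normexp and 2 with probes well above background on all 6 arrays. Leaving out 1 array in turn gave 0 to 494, 0 to 511 and 0 to 320; the first was 28 without Trsp-RIPKO replicate 1 and 0 without any other knockout array or without TrspFF replicate 1, the second was 1 without Trsp-Ins1KO replicate 2 and 0 without any other array but TrspFF replicate 1, and the third was 320 or 319 without a TrspFF array, 22 without Trsp-RIPKO replicate 1 and 0 or 1 without another. The cause was not tested. Calls split into 22 higher and 357 lower, and 55 and 361, as reported; with normexp they were 71 and 352, and 189 and 388.

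The median member difference was -0.16 with median scaling and -0.38 with the mean of probes in Trsp-RIPKO against TrspFF (-0.41 to -0.19 leaving out 1 array), and -0.25 with normexp and -0.22 with quantile normalization in Trsp-RIPKO against Trsp-Ins1KO (-0.45 to -0.25 leaving out 1 array). With the value table under its own labels it was -0.045, -0.27 and 0.37; by construction that exchange turned Gad2 (0.055 and -0.24) and Slc32a1 (0.098 and -0.27) in the comparisons with TrspFF and every member between the knockouts: Gad1 -0.087, Gad2 0.30, Slc32a1 0.37, Dlx1 0.21, Dlx2 0.43, Dlx5 0.50 and Dlx6 0.60. No other member difference turned between the knockouts. Against TrspFF, Trsp-RIPKO turned for Gad1 only, to 0.088 with median scaling (-0.10 to 0.059 leaving out 1 array). Trsp-Ins1KO turned for Gad2 (-0.042 with normexp, -0.039 with quantile; -0.033 to 0.14 leaving out 1 array), Slc32a1 (-0.094 with quantile, -0.099 with the mean of probes), Dlx1 (0.042 with median scaling; -0.20 to 0.11), Dlx5 (0.090 with quantile, 0.073 with median scaling; -0.10 to 0.076) and Dlx6 (0.062 and 0.022; -0.17 to 0.044). Of 810 list medians under alternatives, 119 moved by more than the spread between replicates.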
